A study of Homo sapiens with 6 samples.

Results

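The genes described here build and run the machinery that cuts microRNAs from their precursors and uses them to silence messenger RNAs. They are DROSHA and DGCR8 of the Microprocessor, DICER1 and its partner TARBP2, the Argonautes AGO1, AGO2 and AGO3, and the scaffold genes TNRC6A, TNRC6B and TNRC6C. The members are named genes, matched by current symbols and older aliases, and the rule uses no measured value. They were, however, chosen with earlier results of these data known. The platform annotation assigned 22 of the 47322 array probes to these 10 genes. Of these, 11 probes from 9 genes passed the filter on dim signals (detection p below 0.01 on at least 3 of 6 arrays). The 11 others, which include all 3 TNRC6C probes, did not. The cells were T47D, an oestrogen receptor positive line from a luminal breast cancer, and received either a synthetic miR-489 mimic or a scrambled control siRNA. RNA was taken at 72 h, and each group held 3 samples, each on its own array. The design asks which genes respond to miR-489. Both groups carry a transfected small RNA, no untransfected cells were used here, and all samples come from a single cell line. The labels do not say whether replicates were separate cultures, so every p-value refers to the spread among these 6 samples, and that spread may be technical.

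A microRNA gene is transcribed into a long primary transcript that folds into a hairpin. In the nucleus, the RNase III enzyme Drosha cuts out the hairpin while DGCR8 holds the RNA. Exportin-5 carries the hairpin to the cytoplasm, where Dicer, helped by TRBP (the product of TARBP2), removes the loop. An Argonaute keeps a single strand and uses its seed, the bases near the 5′ end, to find target messages. TNRC6 proteins bind Argonaute and recruit deadenylases, after which the message is decapped and degraded. A synthetic mimic is already a short duplex, so it needs neither the Microprocessor nor Dicer to be cut, but it does need an Argonaute to act.

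The sequences below show the precursor these enzymes would normally cut and the strand that Argonaute would hold. They are from RefSeq (GRCh38.p14), 5′ to 3′. MIR489 lies at chr7:93483936-93484019 on the minus strand. In the hairpin, capitals mark the annotated mature strand. In the mature strand, capitals mark the seed (bases 2 to 8). The labels do not give the arm or sequence of the mimic, so these are the natural RNAs and not the transfected reagent.
MIR489 hairpin: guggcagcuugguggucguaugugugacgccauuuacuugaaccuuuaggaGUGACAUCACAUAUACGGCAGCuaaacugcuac
hsa-miR-489-3p: gUGACAUCacauauacggcagc
Of the 2370 mature microRNA names in the RefSeq table, 1, miR-489-3p itself, has this seed.

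DICER1 is known to be repressed by let-7 and by miR-103 and miR-107, so their strands are shown for comparison, again with the seed in capitals. They lie at chr9:94175962-94175983 (plus strand), chr5:168560904-168560926 (minus) and chr10:89592756-89592778 (minus).
hsa-let-7a-5p: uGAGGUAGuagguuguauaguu
hsa-miR-103a-3p: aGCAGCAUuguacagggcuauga
hsa-miR-107: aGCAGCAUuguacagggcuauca
miR-103a-3p and miR-107 share a seed, and let-7a-5p shares its seed with 10 other names in the table. None of the 3 has the seed of miR-489-3p. The levels of these microRNAs were not measured on this array.

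Of the 10 members, 2 also contain microRNA genes on their own strand. DGCR8 holds MIR3618 and MIR1306, and DICER1 holds MIR3173. They are shown because the transcripts measured by the DGCR8 and DICER1 probes share a gene with these precursors. The DGCR8 message itself is a known Microprocessor substrate. The strands shown lie at chr22:20085797-20085818 (plus), chr22:20086112-20086129 (plus) and chr14:95137961-95137982 (minus), with the seed in capitals. The other annotated mature strands of these precursors, miR-1306-5p and miR-3173-3p, are not shown.
hsa-miR-3618: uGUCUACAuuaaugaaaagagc
hsa-miR-1306-3p: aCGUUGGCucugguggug
hsa-miR-3173-5p: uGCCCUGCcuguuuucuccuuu

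The arrays were similar in brightness. Mean probe intensity ran from 526 to 619 (arbitrary units), and 16452 to 17346 probes were detected per array. The dimmest detected probe lay between 135 and 157 on each array. PTPN11, a described miR-489 target that encodes the phosphatase SHP2, read 3138, 2901 and 2749 in the scramble arrays and 610, 527 and 500 in the mimic arrays. It fell by 2.81 on the log2 scale (SE 0.12, limma adjusted p = 4.80e-05) in the arrays labelled mimic. All 8 luminal epithelial markers checked were detected on 6 of 6 arrays, and of these ESR1, FOXA1 and KRT19 fell, KRT8 and EPCAM rose and 3 were not called. Of 11 markers of other cell types with a named probe, CD68, VIM and TWIST1 had a probe detected on all 6 arrays, at intensities up to 638, and 8 were detected on none. CD68 fell by 0.59 on the log2 scale, while no probe of the leukocyte gene PTPRC was detected, and VIM and TWIST1 were not called (-0.27 and 0.62). What part these markers have in the results was not tested.

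Among the 9 measured members, DICER1 and AGO1 fell, TNRC6A rose, and 6 were not called at a limma adjusted p below 0.05. That is 33.3% called, against 35.7% of all 10503 measured genes, so the machinery was not called more often than genes in general. Of all genes, 17.3% fell and 18.4% rose. The median log2 fold change (mimic minus scramble) was -0.02 over the 9 members and 0.03 over all genes. In 5 of the 9 the 2 groups of arrays did not overlap, against 51.4% of all genes. Counted by probe, 1 of the 11 rose and 3 fell, and 33.9% of all kept probes were called. The groups did not overlap in 7 of the 11 kept probes, against 48.8% of all kept probes.

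**Figure D1:**
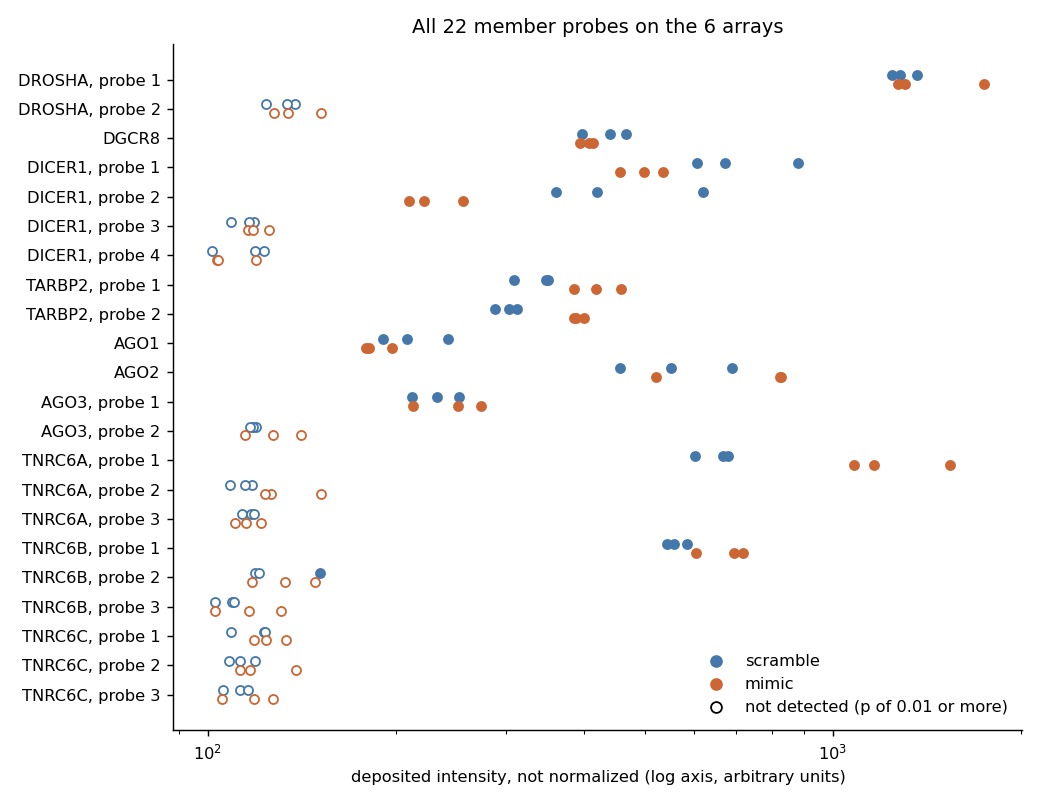
Deposited intensity (log axis, arbitrary units, not normalized) of each of the 22 member probes on the 6 arrays; each point is an array, and open points were not detected. The 11 kept probes range from 179 to 1746, and the others stay at or under 152.

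The Microprocessor genes were not called. DROSHA, the nuclear RNase III, read 1364, 1246 and 1282 in the scramble arrays and 1746, 1304 and 1274 in the mimic arrays. These are deposited intensities before normalization, and mimic array 1 was the brightest array overall. On the normalized log2 scale its level was 10.32 ± 0.02 (SD, n = 3) with the scramble and 10.30 ± 0.15 with the mimic. The groups overlapped, and the difference was -0.02 with a 95% interval from -0.31 to 0.28 (limma adjusted p = 0.935). Its second probe was detected on 0 of 6 arrays.

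DGCR8, the RNA-binding partner of Drosha, had normalized log2 values of 8.56, 8.34 and 8.51 in the scramble arrays and 8.01, 8.18 and 8.30 in the mimic arrays. All 3 mimic values were under the lowest scramble value, but by a small margin. The difference was -0.31 ± 0.14 (SE), with a 95% interval from -0.62 to 0.01, and it was not called (limma adjusted p = 0.117). The sign was the same in 17 of 17 alternative analyses, and none of them called it.

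DICER1, the cytoplasmic RNase III that makes the mature duplex, fell on both of its kept probes. The brighter probe (ILMN_1772692) read 881, 607 and 674 in the scramble arrays and 536, 499 and 456 in the mimic arrays. The dimmer one (ILMN_2349831) read 619, 361 and 420, against 256, 210 and 222. In both probes each mimic array was lower than each scramble array, and scramble array 1 stood highest.

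After normalization the brighter DICER1 probe changed by -0.80 ± 0.16 on the log2 scale, a 1.74-fold fall (limma adjusted p = 0.00716). The dimmer probe changed by -1.62 ± 0.22, a 3.07-fold fall (adjusted p = 0.00156). Both are annotated to the same DICER1 transcript record. Both kept their call in 17 of 17 alternative analyses, with adjusted p no higher than 0.0312 and 0.00842. Without scramble array 1, the changes were -0.65 and -1.36. In the authors' processed values, which are on a more compressed scale, they were smaller, at -0.57 and -0.83.

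In these arrays the measured DICER1 fall was larger on the dimmer probe, but 3 against 3 arrays are too few for the exact test to call this difference. Within each array, the dimmer probe minus the brighter one ranged from -0.96 to -0.58 on the log2 scale in scramble arrays and from -1.85 to -1.51 in mimic arrays. These ranges do not overlap. The probes' changes differed by -0.82 (two-sided exact permutation p = 0.10, the smallest that 3 against 3 arrays allow, and adjusted p = 0.14 over the 7 probe pairs compared here). The 7 include a CNOT1 pair that was picked for its difference. The remaining 2 DICER1 probes were not detected on any array (intensities 102 to 126).

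TARBP2, which encodes the double-stranded RNA binding protein that works with Dicer, was higher in each mimic array than in each scramble array on both probes. The brighter probe read 347, 309 and 351, against 459, 419 and 386. The log2 differences were 0.27 ± 0.13 and 0.36 ± 0.13, with 95% intervals from -0.02 to 0.57 and from 0.06 to 0.67. Neither was called (limma adjusted p = 0.134 and 0.0668). Scaling each array by its median, which moved the median difference of all kept probes up to 0.10, called the second probe (0.47, adjusted p = 0.0263). DICER1 minus TARBP2, taken within each array on their brighter probes, was lower by 1.07 on the log2 scale with the mimic. Its ranges did not overlap (two-sided exact permutation p = 0.10, adjusted p = 0.14). The groups of each gene already did not overlap, in opposite directions, so this outcome was fixed in advance and adds no support.

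**Figure D2:**
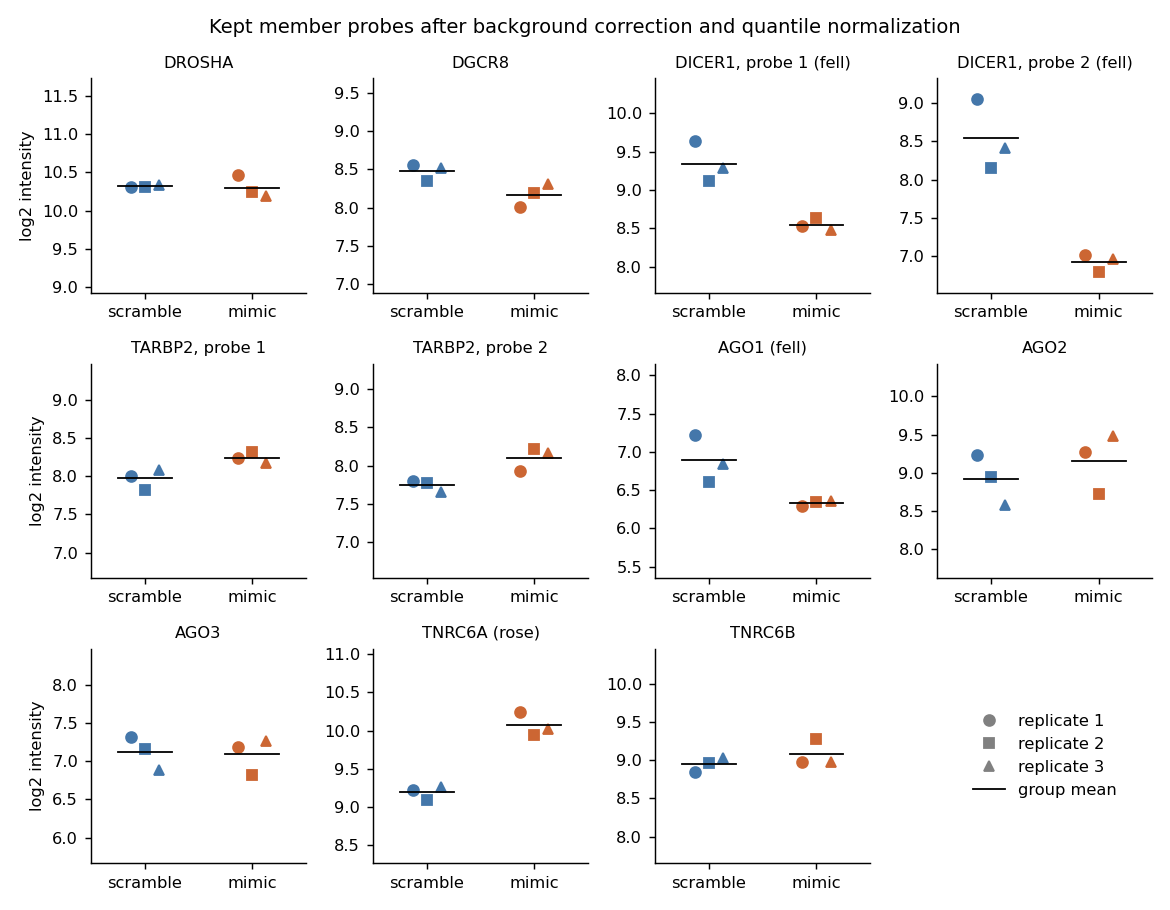
Normalized log2 intensity of the 11 kept member probes; each symbol is an array, shaped by replicate number, the line is the group mean, and the panels span equal ranges. DICER1 and AGO1 lie lower and TNRC6A higher in the mimic arrays with no overlap, while DROSHA, AGO2, AGO3 and TNRC6B overlap.

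Argonaute proteins hold the guide strand, and AGO2 is known as the family member with strong slicing activity. The AGO1 probe read 242, 191 and 209 in the scramble arrays and 197, 181 and 179 in the mimic arrays. These deposited values overlap between the groups. After normalization they were 7.22, 6.61 and 6.84, against 6.29, 6.35 and 6.36, and no longer overlapped.

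AGO1 fell by 0.56 on the log2 scale (SE 0.17, limma adjusted p = 0.0353), a 1.47-fold change. The call was lost without scramble array 1 or 3 and without any 1 mimic array (adjusted p from 0.0593 to 0.0972). It was also lost in 5 of 11 other analyses, among them the authors' processed values (-0.18, adjusted p = 0.0830), no background correction (-0.28) and median scaling (-0.49).

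AGO2 varied widely inside both groups, at 691, 551 and 457 with the scramble and 827, 521 and 824 with the mimic. The groups overlapped, and the difference was 0.23 on the log2 scale with a 95% interval from -0.31 to 0.78 (limma adjusted p = 0.479). AGO3 read 253, 233 and 212, against 274, 213 and 251, and its difference was -0.03 with an interval from -0.43 to 0.37 (adjusted p = 0.908). Its second probe was not detected on any array. The sign for AGO3 changed in 4 of 17 alternative analyses.

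In the RefSeq annotation (GRCh38.p14) AGO4, AGO1 and AGO3 are neighbours on chromosome 1, in that order, and AGO2 is on chromosome 8. AGO4, the remaining Argonaute, is not among the 10 members. Its probe read 119 to 133 and was detected on 0 of 6 arrays. AGO1 was called and its neighbour AGO3 was not, which does not show that they differ. The change of AGO1 minus that of AGO3 was -0.53 on the log2 scale, with within-array ranges that overlapped (two-sided exact permutation p = 0.20, adjusted p = 0.23, in a design that cannot go below 0.10). Against AGO2 the difference was -0.80, with within-array ranges that did not overlap (exact permutation p = 0.10, adjusted p = 0.14).

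TNRC6 proteins (the GW182 family) link Argonaute to the deadenylases. TNRC6A gave the only rise among the measured members. Its probe read 679, 602 and 669 in the scramble arrays and 1541, 1081 and 1164 in the mimic arrays. Each mimic array was well above each scramble array, and mimic array 1 was the highest.

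TNRC6A rose by 0.87 ± 0.13 on the log2 scale, or 1.83-fold (limma adjusted p = 0.00235). The call held in 17 of 17 alternative analyses, with changes from 0.71 in the authors' processed values to 1.01 with median scaling. Of its 2 other probes, ILMN_1752409 read 108, 118 and 115, against 152, 126 and 123. Those mimic values lie above the scramble values, but no array reached detection, and in the fit without a filter the change was 0.46 (adjusted p = 0.142). The remaining TNRC6A probe changed by -0.12 there (adjusted p = 0.619), also without detection.

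TNRC6B read 544, 557 and 585 in the scramble arrays and 695, 718 and 604 in the mimic arrays. After normalization the groups overlapped, and the difference was 0.13 with a 95% interval from -0.18 to 0.45 (limma adjusted p = 0.488). Within arrays, TNRC6A minus TNRC6B was higher by 0.74 on the log2 scale with the mimic, with no overlap. The exact permutation p was 0.10 (adjusted p = 0.14), the smallest that 3 against 3 arrays allow, so this test could not call the difference. Of the 2 other TNRC6B probes, 1 was detected, on scramble array 2 alone. The 3 TNRC6C probes read 106 to 139 and were detected on no array, so no TNRC6C level can be compared.

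**Figure D3:**
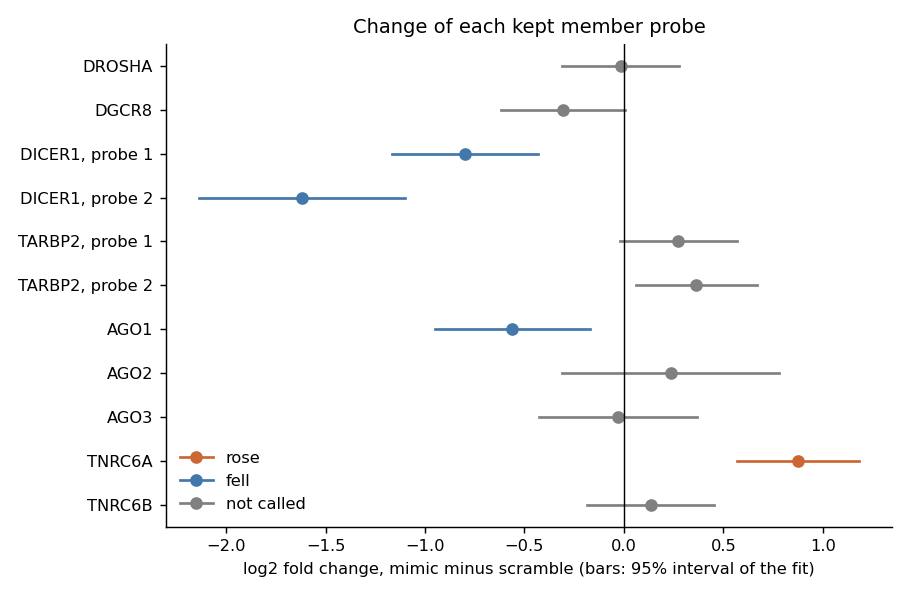
Log2 fold change (mimic minus scramble) of each kept member probe with its 95% interval from the limma fit; colour gives the call at an adjusted p below 0.05. Both DICER1 probes (-0.80 and -1.62) and AGO1 (-0.56) are below 0, TNRC6A (0.87) is above it, and the 7 other probes were not called.

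**Figure D4:**
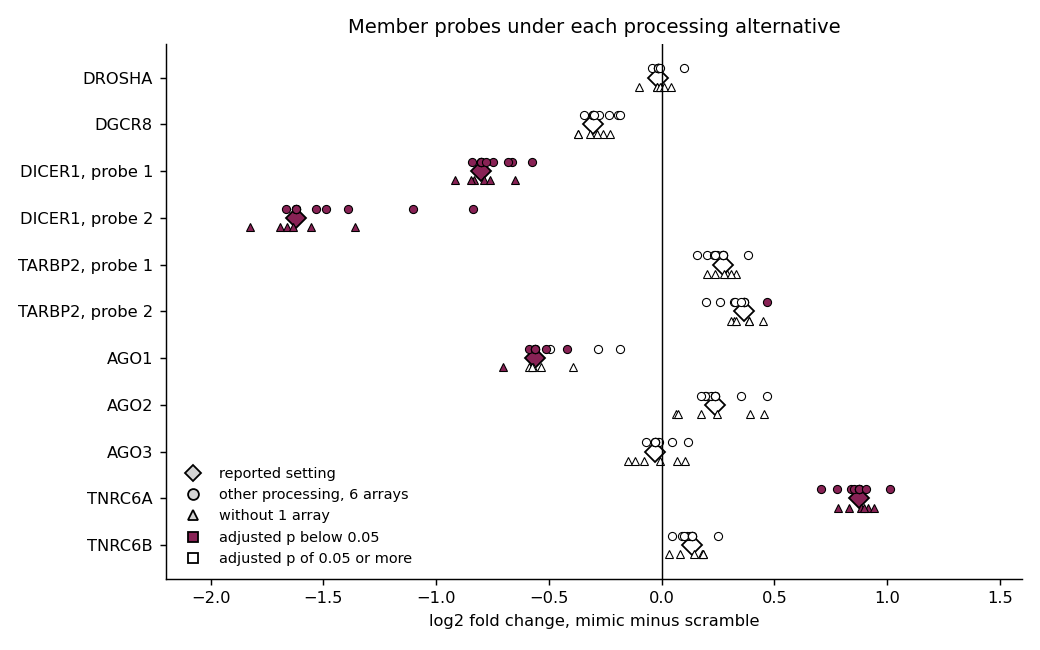
Log2 fold change of each kept member probe as reported (diamond), under 11 other processing settings with all 6 arrays (circles) and with 1 array left out (triangles); filled symbols have an adjusted p below 0.05. The DICER1 and TNRC6A symbols are filled throughout, while AGO1 is open in 10 of 17 alternatives.

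The members work with many other proteins, and 115 further genes were listed by role. Of these, 99 were measured, 16 rose, 15 fell and 68 were not called. That share, 31.3%, is close to the 35.7% of all genes, and the median log2 fold change was 0.08. Leaving out 1 array lowered the number called to between 18 and 26, with the fewest without mimic array 1 (18), scramble array 3 (19) or mimic array 3 (20). Over all genes the number called fell from 3752 to as few as 2466, without mimic array 3.

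Upstream, 16 of 18 cofactors of primary transcript processing were measured, of which 2 rose and 2 fell. That is 25% called, against 35.7% of all genes. NCBP1, the large subunit of the nuclear cap-binding complex, rose by 0.66 ± 0.14 on the log2 scale. SRRT (ARS2), which joins that complex to the Microprocessor, rose by 0.46 ± 0.12, and its call went (adjusted p from 0.0547 to 0.0608) when scramble array 2 or 3, or mimic array 1 or 3, was left out. NCBP2, the small cap-binding subunit, fell by 1.20 on its brightest probe (SE 0.19), yet its 2 other kept probes, annotated to the same transcript record, were at 0.08 and 0.21 and were not called. TARDBP (TDP-43), an RNA-binding protein found with Drosha, changed by -1.08 ± 0.17, and by -0.43 in the authors' processed values. The helicases DDX5 and DDX17, Microprocessor cofactors chosen after their values were seen, were not called (0.18 and -0.10).

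XPO5, the exporter of precursor hairpins, read 578, 559 and 482 with the scramble and 573, 548 and 608 with the mimic. The groups overlapped, and the difference was -0.05 ± 0.15 (limma adjusted p = 0.814). RAN, the GTPase that drives export, fell on both its probes (-0.48 ± 0.14 and -0.89 ± 0.15), but the brighter was called neither with median scaling (adjusted p = 0.0613) nor without any single array other than mimic array 3 (0.0503 to 0.0761). The 3 other measured export genes were not called. With RAN as the only call, 20% of the 5 measured export genes were called, against 35.7% of all genes.

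Of 22 partners of Argonaute and of its loading, 17 were measured, 5 rose, 0 fell and 12 were not called. That is 29.4% called, against 35.7% of all genes, of which 18.4% rose and 17.3% fell. The median log2 fold change was 0.30, against 0.03 over all genes. The 5 rises include both cytosolic HSP90 genes, whose chaperone opens Argonaute for the duplex. HSP90AB1 changed by 0.75 ± 0.12, and HSP90AA1, the fifth by size and so outside the naming rule, by 0.46 ± 0.11. Without scramble array 3, or without mimic array 1 or 3, HSP90AA1 was not called (adjusted p from 0.0508 to 0.0579). Of its 2 other kept probes, 1 rose (0.74) and 1 was not called (0.37). The HSP90 co-chaperone FKBP4 rose by 0.61 ± 0.18, the HSP40 protein DNAJA2 by 0.49 ± 0.14 and GEMIN4, a partner of AGO2, by 0.70 ± 0.20. The chaperone and co-chaperone genes HSPA8 (0.0004), PTGES3 (-0.10), CDC37 (-0.28), FKBP5 (-0.17) and STIP1 (0.43) were not called. They are named after their values were seen. PRKRA (PACT), the other Dicer partner, was not called (-0.04) and was picked out with its value known. The number that rose was 3 without scramble array 2, 1 without scramble array 3, 1 without mimic array 1 and 2 without mimic array 3, and it was 2 without a filter on dim probes. Calls of FKBP4 and GEMIN4 were lost in those 5 analyses (adjusted p from 0.0630 to 0.1025), and that of DNAJA2 without the filter (0.0509) and when scramble array 1 or 3, or mimic array 1 or 2, was left out (0.0656 to 0.0846). In the authors' processed values, 7 rose and 1 fell.

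Genes whose products modify Argonaute had 4 falls and 1 rise among 9 measured, or 55.6% called, against 35.7% of all genes. Averaging the kept probes of each gene gave 4 falls and 0 rises. ANKRD52, the regulatory subunit of the phosphatase that clears phosphates from AGO2, fell by 1.35 ± 0.20, or 2.54-fold. It read lower in each mimic array than in each scramble array (limma adjusted p = 0.00191). In the authors' processed values the fall was smaller, at -0.59. PPP6C, the catalytic subunit of that phosphatase, was not called (0.32 ± 0.15). CSNK1A1, the kinase that adds those phosphates, was not called on its brightest probe (0.31 ± 0.15) and fell on another (-0.81 ± 0.16), while its remaining kept probe was at 0.64 and not called (adjusted p = 0.0914). These 2 genes are named after their values were seen. P4HB, a subunit of the prolyl hydroxylase that acts on AGO2, fell by 0.63 ± 0.12. MAPKAPK2, an AGO2 kinase, fell by 0.58 ± 0.13. EGFR, a receptor kinase known to phosphorylate AGO2, rose by 0.76 ± 0.13 on its brightest probe, and its other kept probe was not called (0.05).

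Downstream of TNRC6, 18 of 21 genes of the CCR4-NOT and PAN deadenylases and their partners were measured. Of these, 3 rose and 4 fell, or 38.9% called, against 35.7% of all genes. PAN2 and PAN3 form a single complex but moved in opposite directions. PAN2, its nuclease, rose by 0.89 ± 0.27, and PAN3, its adaptor that binds TNRC6, fell by 0.64 ± 0.12. Leaving out scramble array 1 or 2, or any 1 mimic array, ended the PAN2 call (adjusted p from 0.0620 to 0.0917). So did array weights, no filter and a filter of 1 detected array (0.0511 to 0.0976). PAIP1, a binder of poly(A)-binding protein, fell by 0.91 ± 0.15 on its brightest probe, and its other kept probe, which was not called, was at 0.61 ± 0.23. CNOT10, a CCR4-NOT subunit, rose by 0.67 ± 0.18, which was not called (0.0623 to 0.0742) once scramble array 2 or 3, or mimic array 3, was left out. With 1 array left out, 3 or 4 genes of this list were called, whichever of the 6 arrays it was.

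CNOT1, the CCR4-NOT scaffold that TNRC6 proteins contact, is named after its values were seen because its probes disagree. The brightest probe read 2073, 2080 and 1710 in the scramble arrays and 2260, 2255 and 2241 in the mimic arrays, and was not called (0.07 ± 0.14). A second, annotated to a different CNOT1 transcript record, read 547, 537 and 561, against 241, 224 and 242. It changed by -1.89 ± 0.13 (limma adjusted p = 0.000151). Another, of that same second record, was detected on 3 scramble arrays and no mimic array, at least 3.54-fold lower with the mimic. It passed the filter through the scramble arrays alone, so this is given as a description. For this bound, the mimic side was set on each array to the dimmest detected probe wherever that was above the probe itself. Within arrays, the second minus the first ranged from -2.19 to -1.82 on the log2 scale with the scramble and from -4.13 to -3.89 with the mimic. The gene was picked for this difference, so its exact permutation test is not read as support. This pair is among the 7 over which the pair tests were adjusted. In the processed values of the authors the falls were smaller, at -1.03 and -0.55.

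Of 20 measured genes of decapping, decay and repression of translation, 2 fell, 2 rose and 16 were not called. That is 20% called, against 35.7% of all genes. DCP2, the decapping enzyme, fell by 0.79 ± 0.15, and EDC3, an enhancer of decapping, by 0.63 ± 0.13. LSM6, of the LSM ring that binds shortened tails, rose by 0.78 ± 0.12, and its change was 0.23 in the authors' processed values. GIGYF2, a translational repressor, rose by 0.48 ± 0.13, and lost its call (adjusted p from 0.0541 to 0.0703) when scramble array 1 or 3, or mimic array 1 or 2, was dropped. The exonuclease gene XRN1, named after its value was seen, was not called (0.12 ± 0.13). The probe of the helicase gene DDX6 did not pass the filter.

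For microRNA tailing and turnover, 3 of 14 measured genes rose and 2 fell. That is 35.7% called, the same share as over all genes (35.7%). TUT4, a uridylyl transferase that marks precursors, rose by 0.68 ± 0.13, and DIS3L2, the nuclease that degrades uridylated precursors, by 0.55 ± 0.16. TENT2 (GLD2), which adds adenines to mature microRNAs, fell by 0.69 ± 0.13. EXOSC10, a nuclear exosome subunit, rose on all 3 of its kept probes (0.54 ± 0.15 on the brightest). The DIS3L2 call was lost when scramble array 1 or 2, or mimic array 1 or 3, was dropped (adjusted p from 0.0620 to 0.0912), and with no background correction, with no filter and in the authors' processed values (0.0544 to 0.104). EXOSC10 was not called on that probe (0.0501 to 0.0969) when scramble array 2 or 3, or mimic array 1 or 3, was dropped, nor with no filter (0.0530). The list's count fell from 5 to 3 without scramble array 1, and to 2 without scramble array 2, mimic array 1 or mimic array 3.

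Of the members, 2 genes had more than 1 kept probe, and in both the probes had the same call and sign. Of the other pathway genes, 26 had more than 1. In 2 of these the probes were all called the same way, in 13 none was called, in 10 only some were, and in 1 (CNOT4) probes were called in both directions.

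**Figure D5:**
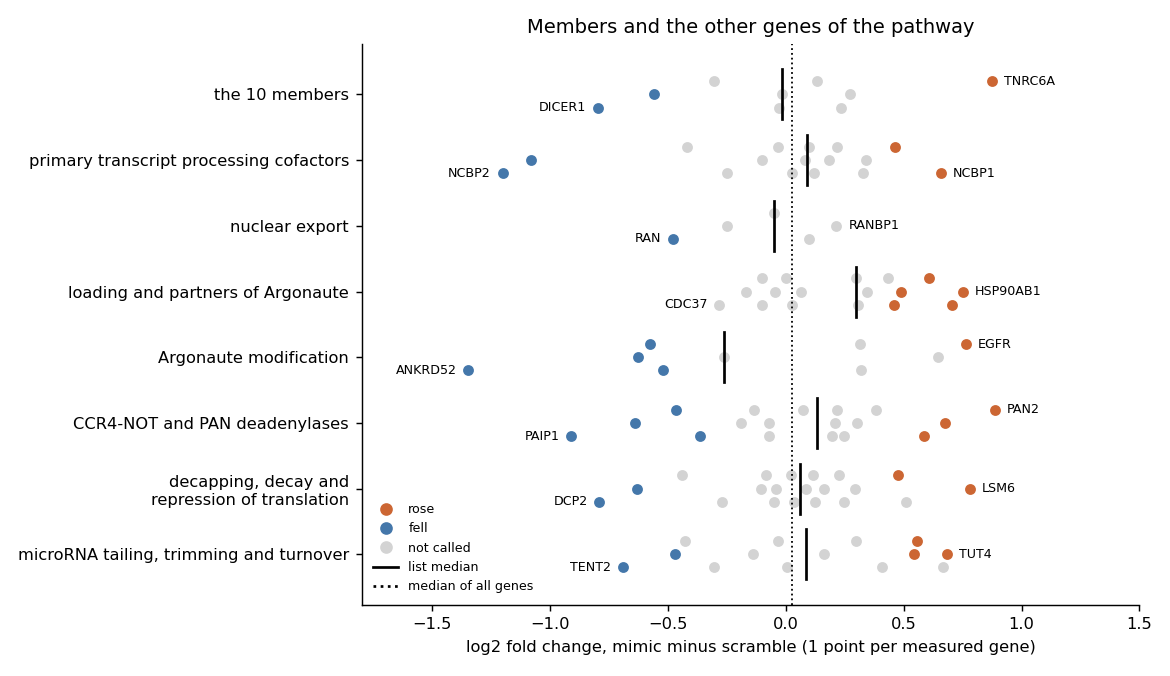
Log2 fold change (mimic minus scramble) of the measured members and of the other pathway genes by role, 1 point per gene from its brightest kept probe; colour gives the call, the solid line the list's median and the dotted line the median of all genes (0.03). Calls lie on both sides of 0 in most lists. The 5 calls among partners of Argonaute (29.4% called, against 35.7% of all genes) are all rises.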

How the data were processed

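T47D RNA was biotin-labelled as cRNA and hybridised to 1-colour Illumina BeadChips, per the labels' protocols. Per the file headers, the non-normalized deposited table holds, for each probe and array, a linear intensity and a detection p-value. The summarising step was not stated. The authors also deposited processed intensity values, for which the submitters' processing notes name lumi 3.2.2. Each of the 6 columns has a median of 200.783, as linear values would, but their transform and any centring stay unknown. Their probe-centred log2 values correlated with those of the same sample's array at r from 0.978 to 0.988. They served as an alternative.

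Here the non-normalized intensities were background-corrected with nec, which infers negative controls through detection p (normexp, offset 16, limma 3.58.1, R 4.3.3), followed by quantile normalization and log2. The 17104 probes with detection p below 0.01 on at least 3 arrays entered a linear model per probe (lmFit, eBayes; two-sided, Benjamini-Hochberg over all kept probes, called below 0.05). Errors after ± are SE unless given as SD. Each gene was counted by its brightest kept probe. The fit was also run on simulated data in which a small set of brighter probes was changed by known folds. That run covers neither dim probes nor changes in as many probes as were called here. Gene names came from the platform annotation, updated by Entrez identifier to RefSeq symbols. All 10 members matched. Precision is limited by how few arrays there are, and folds near background are unstable. No slide or scan batch is given in the sources used here. Members and lists were chosen with earlier results of these data known. The naming rule took all member probes, XPO5, AGO4, PTPN11, and from each other list up to 4 called genes with the largest change. Other pathway genes were named outside this rule, with their results known. They are HSP90AA1, HSPA8, PTGES3, CDC37, FKBP5, STIP1, PRKRA, DDX5, DDX17, PPP6C, CSNK1A1, CNOT1, CNOT4, XRN1 and DDX6. Alternatives covered background, normalization, filter, variance model, array weights, replicate block, probe choice and leaving out each array.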

Additional observations from a re-analysis of the deposited data

How the results depend on the processing

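The DICER1 and TNRC6A calls held in 17 of 17 alternative analyses, and AGO1 in 7 of 17. The other members stayed uncalled, except the second TARBP2 probe with median scaling. Between 2 and 3 member genes were called under each alternative. Leaving out 1 array gave 3788 to 5487 called probes, against 5798, and 18 to 26 called pathway genes, against 31. Other settings with all 6 arrays gave 4690 to 7238 probes and 22 to 40 pathway genes. Median scaling split the called probes into 3676 higher and 2210 lower, against 3002 and 2796. The replicate numbers are shared by both groups, but the labels do not say that they pair samples, so they were not taken as pairs. The deviations of same-numbered arrays from their group means correlated at r = 0.356, 0.45 and -0.107. Of the 3 scramble arrays, 2 correlated best with the mimic array of their own number. With the replicate block, 6680 probes, 3 member genes and 34 pathway genes were called. No called change that was followed through the alternatives reversed its sign. CNOT4, PTPN11, the cell type markers and the dimmer probes of genes other than the members and CNOT1 were not followed. The average over the kept probes of a gene was followed for DICER1 and TARBP2 alone. The groups of 3 arrays are too small to test for outlying arrays. Sizes near background, as for AGO1, depend on the background step, and the cause of each lost call was not tested.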
